A study of Mus musculus with 4 samples.

Results

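The 9 genes described here encode transcription factors of the luminal lineage of the mammary gland: *Gata3*, *Elf5*, *Ehf*, *Elf3*, *Runx1*, *Tbx3*, *Grhl2*, *Spdef* and *Tfap2c*. They were chosen by name, as the rows of the deposited table that carry these symbols, and all 9 were found among its 52636 genes. All 9 had UMIs in every library of each luminal class.

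The ducts of the mammary gland are lined by luminal cells, which comprise luminal progenitor (LP) cells, with the receptor tyrosine kinase *Kit*, and mature luminal (ML) cells, which sense hormones through receptors such as *Prlr* and *Pgr*. GATA3 is a zinc finger factor required for the luminal fate, whereas ELF5 is an ETS factor that directs progenitors toward the milk-secreting alveolar fate. EHF, ELF3 and SPDEF are further ETS factors of epithelia, RUNX1 is a Runt domain factor, TBX3 a T-box factor needed for the mammary placode, GRHL2 a grainyhead factor that maintains epithelial junctions, and TFAP2C an AP-2 factor.

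Luminal cells were sorted by FACS from thoracic and abdominal mammary glands of C57BL/6N mice at 6 weeks of age, during puberty. The control pool was ErbB3+/+;MMTV-Cre (WT) and the other pool was ErbB3V943R/V943R;MMTV-Cre (mutant), in which the V943R substitution impairs the ability of ERBB3 to activate its partner receptor. Both groups carried MMTV-Cre, a Cre recombinase under a viral promoter active in mammary epithelium, so the mutant allele is switched on in cells where Cre has acted. Glands of 3 mice were pooled per genotype and each pool was sequenced as 2 droplet libraries, A and B, whose letters pair nothing across genotypes.

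The libraries held 6849 to 9627 cells and 30019745 to 38009351 unique molecular identifiers (UMIs, 1 for every mRNA molecule caught). Levels are given in counts per 1000000 UMIs (CPM), the UMIs of a gene summed over a set of cells relative to all UMIs of those cells. A difference met the fold rule at a ratio of at least 1.5 and 50 UMIs in the higher group. Both libraries of WT had to point the same way for a contrast within WT, and both mutant libraries had to lie beyond both WT libraries for a contrast between genotypes. With 1 pool per genotype no test between genotypes could be made and no p-value is given. The 95% intervals cover counting error only. Cluster numbers and classes were taken from the deposited table, where clusters 1 and 2 are LP, cluster 3 is luminal intermediate (LI) and clusters 4 to 11 are ML. They were made from the expression of these same cells, so contrasts between classes or clusters are descriptions. Of 31923 cell barcodes, 506 were shared by 2 libraries and 5 by 3 libraries.

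The class labels fitted their defining markers. *Kit* stood at 219 CPM in WT LP cells and 2.68 in ML cells, and *Prlr* at 262 and 2125 CPM. The basal keratin *Krt5* did not exceed 3.38 CPM in any library of a luminal class. The targeted gene *Erbb3* was lower in both mutant libraries than in both WT libraries in each class, with log2 ratios of -0.87 in LP, -0.90 in LI and -1.11 in ML cells. The paper reports a smaller decrease of *Erbb3* mRNA in the mutant sample, without naming the measure. The reason for this gap was not tested.

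Positions are those of GRCm38 in GENCODE release M21, by Ensembl identifier. *Gata3* (ENSMUSG00000015619), *Ehf* (ENSMUSG00000012350), *Elf5* (ENSMUSG00000027186) and *Tfap2c* (ENSMUSG00000028640) all lie on chromosome 2. *Gata3* spans chr2:9857078-9890034 on the minus strand and *Tfap2c* spans chr2:172549593-172558622 on the plus strand. *Ehf* (chr2:103263433-103303278, minus strand) and *Elf5* (chr2:103411688-103450989, plus strand) are head-to-head neighbours, 108409 bases apart, with 3 annotated genes between them, 0 of them protein-coding. *Elf3* (ENSMUSG00000003051) is at chr1:135253575-135258568 on the minus strand, *Runx1* (ENSMUSG00000022952) at chr16:92601466-92826149 on the minus strand, *Tbx3* (ENSMUSG00000018604) at chr5:119670669-119684724 on the plus strand, *Grhl2* (ENSMUSG00000022286) at chr15:37233036-37363569 on the plus strand and *Spdef* (ENSMUSG00000024215) at chr17:27714352-27728955 on the minus strand.

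RefSeq promoters on GRCm38.p6, from 250 bases before to 50 after a transcription start, were matched for 5 of the 9 members, with 7 starts in all. Those of *Elf5*, the member on the LP side with a promoter entry, and of *Gata3*, *Runx1* and *Spdef*, on the ML side, are shown because their levels divide the luminal classes. Capitals mark letters recognised by families to which the members themselves belong, searched on both strands. For ETS factors these were CGGAAG and, as a second form, AGGAAG, which were found in 46.5% of 32851 mouse promoters of the same length. For GATA factors they were AGATAA and, as a second form, TGATAA, found in 18.6%, and for RUNX factors they were TGTGGT and, as a second form, TGCGGT, found in 22.4%. None of these motifs overlapped another in the sequences shown.
*Elf5*, first start, chr2:103411848-103412147, plus strand: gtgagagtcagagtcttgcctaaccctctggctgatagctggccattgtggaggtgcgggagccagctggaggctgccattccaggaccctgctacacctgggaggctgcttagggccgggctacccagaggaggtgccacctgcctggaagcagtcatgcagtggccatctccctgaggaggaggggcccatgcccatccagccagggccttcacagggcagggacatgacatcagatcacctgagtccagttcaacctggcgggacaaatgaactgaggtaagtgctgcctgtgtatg
*Elf5*, second start, chr2:103423818-103424117, plus strand: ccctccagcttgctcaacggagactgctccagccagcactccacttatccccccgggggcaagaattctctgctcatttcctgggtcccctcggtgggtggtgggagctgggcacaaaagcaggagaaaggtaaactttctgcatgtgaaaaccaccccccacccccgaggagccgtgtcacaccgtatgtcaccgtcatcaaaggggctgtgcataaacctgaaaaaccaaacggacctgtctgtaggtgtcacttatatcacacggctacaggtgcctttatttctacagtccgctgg
*Gata3*, chr2:9878551-9878850, minus strand: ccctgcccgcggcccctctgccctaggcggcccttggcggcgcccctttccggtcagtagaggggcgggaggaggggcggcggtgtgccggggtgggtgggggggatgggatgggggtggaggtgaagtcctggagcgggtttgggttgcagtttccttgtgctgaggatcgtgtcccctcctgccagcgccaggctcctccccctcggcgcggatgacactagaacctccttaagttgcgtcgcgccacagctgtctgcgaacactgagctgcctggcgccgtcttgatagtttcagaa
*Runx1*, upstream start, chr16:92826025-92826324, minus strand: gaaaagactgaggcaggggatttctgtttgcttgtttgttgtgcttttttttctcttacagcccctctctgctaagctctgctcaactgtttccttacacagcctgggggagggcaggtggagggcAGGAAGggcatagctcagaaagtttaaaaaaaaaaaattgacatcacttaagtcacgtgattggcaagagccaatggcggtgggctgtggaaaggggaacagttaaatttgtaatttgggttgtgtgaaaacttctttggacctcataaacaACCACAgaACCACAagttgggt
*Spdef*, chr17:27728902-27729201, minus strand: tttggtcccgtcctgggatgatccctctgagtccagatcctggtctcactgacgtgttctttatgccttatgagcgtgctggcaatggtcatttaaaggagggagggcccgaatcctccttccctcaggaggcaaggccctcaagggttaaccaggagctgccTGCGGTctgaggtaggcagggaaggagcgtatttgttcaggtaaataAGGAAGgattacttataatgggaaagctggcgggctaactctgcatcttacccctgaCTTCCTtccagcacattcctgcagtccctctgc
The 2 *Elf5* promoters and that of *Gata3* held 0 matches. The upstream *Runx1* promoter held 1 ETS and 2 RUNX matches, and the *Spdef* promoter held 2 ETS matches and 1 RUNX match. The other *Runx1* start (chr16:92697280-92697579) and the *Elf3* promoter (chr1:135258423-135258722) held 0. *Ehf*, *Tbx3*, *Grhl2* and *Tfap2c* had no entry.

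*Elf5*, *Ehf* and *Tfap2c* were the LP factors among the members. *Elf5* stood at 295 and 334 CPM in LP cells of WT libraries A and B and at 19.7 and 19.6 CPM in ML cells, and at 310 and 322 against 22.2 and 24.6 CPM in mutant libraries A and B. In WT this was a 16.1-fold difference, with a log2 ratio of 4.0 (3.9 to 4.11). *Ehf* stood at 261 and 275 CPM in LP and 10.3 and 11.1 CPM in ML cells of WT, and at 270 and 290 against 11.5 and 13 CPM in the mutant. Its WT levels differed 25.0-fold (log2 4.64, 4.51 to 4.77). *Tfap2c* stood at 151 and 168 CPM in LP and 6.15 and 5.84 CPM in ML cells of WT. In the mutant it stood at 164 and 148 against 6.93 and 6.03 CPM. Its WT gap of 26.7-fold (log2 4.74, 4.57 to 4.92) was the widest of the 9, but its interval overlapped that of *Ehf*. In WT library A the gap of *Ehf* was wider (log2 4.66 against 4.62). For all 3 genes the LP and ML levels did not overlap across the 4 libraries.

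*Gata3*, *Runx1*, *Tbx3* and *Spdef* were higher in ML cells. *Gata3* stood at 474 and 464 CPM in LP and 1190 and 1174 CPM in ML cells of WT libraries A and B, and at 515 and 503 against 1304 and 1264 CPM in the mutant. LP cells thus held a *Gata3* level lower by a factor of 2.52 (log2 -1.33, -1.38 to -1.29). *Runx1* stood at 115 and 105 CPM in LP and 256 and 266 CPM in ML cells of WT (log2 -1.25, -1.35 to -1.16), and at 106 and 108 against 261 and 265 CPM in the mutant. *Tbx3* stood at 37.2 and 43.0 against 119 and 119 CPM in WT (log2 -1.57, -1.73 to -1.41) and at 40.0 and 40.0 against 122 and 119 CPM in the mutant. *Spdef* had the fewest UMIs in LP cells, with 8.18 and 10.0 CPM there and 31.6 and 32.1 CPM in ML cells of WT (log2 -1.80, -2.14 to -1.47), and 8.35 and 9.73 against 27.4 and 30.2 CPM in the mutant. These differences were smaller than those of the LP factors, between 2.39-fold for *Runx1* and 3.48-fold for *Spdef*, while *Elf5*, *Ehf* and *Tfap2c* in ML cells stood at 6.23%, 4.01% and 3.74% of their LP level.

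*Elf3* and *Grhl2* were shared by the classes. *Elf3* stood at 124 and 146 CPM in LP and 123 and 127 CPM in ML cells of WT (log2 0.12, 0.03 to 0.21), and under TMM scaling its sign turned, to -0.17. *Grhl2* stood at 29.5 and 33.2 CPM in LP and 22.4 and 21.8 CPM in ML cells (log2 0.51, 0.32 to 0.70), and at 0.23 with TMM. Without WT library A its log2 ratio was 0.61 and met the fold rule. In the mutant, with 33.4 CPM in LP cells of both libraries and 21.4 and 22.1 CPM in ML cells, *Grhl2* reached a log2 ratio of 0.62 and met the fold rule, a call that was lost with TMM (0.30). TMM scaling, which sets the bulk of genes level, moved every LP over ML log2 ratio down by 0.28 in WT and 0.32 in the mutant and turned the direction of no other member.

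Counted together, 3 of 9 members met the fold rule as higher in LP and 4 as higher in ML cells of WT, against 23.1% and 18.5% of 13367 genes tested. In the mutant these were 4 and 4 members (3 and 4 with TMM, without *Grhl2*), against 25.1% and 17.8% of 13181 genes. The median log2 ratio in WT was 0.12 over the 9 members and 0.09 over all genes tested.

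**Figure D1:**
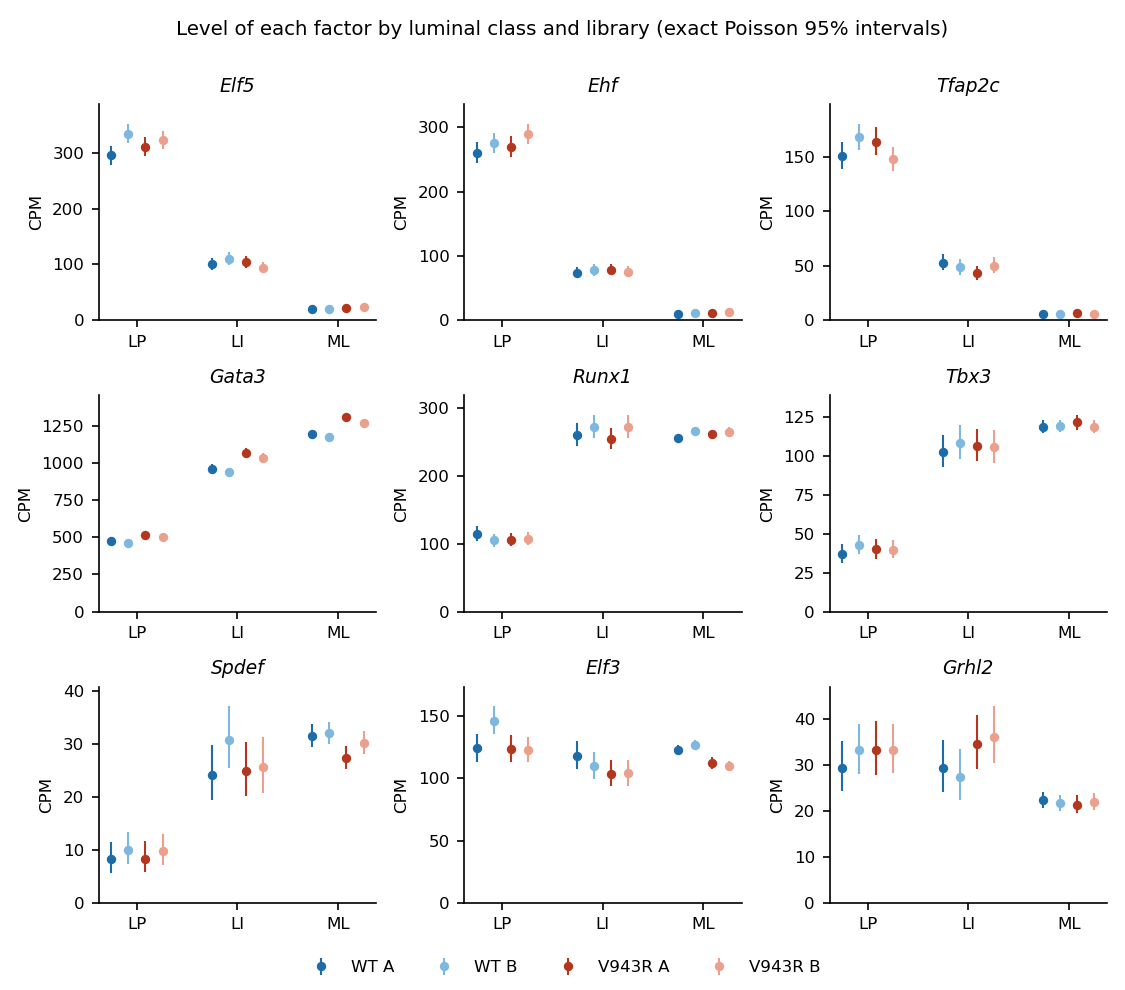
Level of each member in CPM (y axis, from 0) in LP, LI and ML cells of the 4 libraries, with exact Poisson 95% intervals. *Elf5*, *Ehf* and *Tfap2c* drop from LP to ML, *Gata3*, *Runx1*, *Tbx3* and *Spdef* climb, *Elf3* and *Grhl2* span the classes, and *Runx1* in LI cells lies close to its pooled ML level.

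The share of cells with a UMI was taken after each cell had been thinned to 1000 UMIs, since median depth was 2018 UMIs in LP, 5620 in LI and 3508 in ML cells of WT. Thinning left out 45 WT and 252 mutant cells. *Elf5* was found in 27.2% of thinned LP, 12.5% of LI and 1.89% of ML cells of WT (52.2%, 45.6% and 6.55% without thinning). *Gata3* was found in 35.2%, 56.7% and 65.4% (59.5%, 95.5% and 92.6% without thinning). *Runx1* was found in 9.53%, 22.2% and 22.5% (21.7%, 71.0% and 56.4% without thinning). By share the classes came in the same order as by CPM for the other members except *Elf3*, at 13.1% in LP, 11.9% in LI and 11.4% in ML cells against 136, 114 and 125 CPM. The order of *Runx1* in LI and ML cells also turned, with 266 and 261 CPM, and for both genes the intervals of the LI and ML shares overlapped. Clusters 12 and 13, with 126 WT cells at a median of 1922 UMIs, carry stromal and immune genes. They are no clean background, since their summed level of 4 luminal markers was 8279 and 8794 CPM against 12531 CPM in LP cells, and RUNX1 also acts in blood cells. There *Elf5* was found in 1.59% of thinned cells (0.193% to 5.62%), *Ehf* and *Tfap2c* in 0.794% (0.0201% to 4.34%), *Runx1* in 7.14% (3.32% to 13.1%), *Tbx3* in 4.76% (1.77% to 10.1%) and *Gata3* in 18.3%. The ML shares of *Elf5* (1.89%), *Ehf* (0.868%) and *Tfap2c* (0.543%) lay within these intervals and cannot be read as expression on their own. The LP shares of *Runx1* (9.53%) and *Tbx3* (3.24%) and the LI share of *Tbx3* (9.81%) also lay within them. *Grhl2* and *Spdef* were found in 0 of these 126 cells, with an interval up to 2.89%, and the LI and ML shares of *Grhl2* (2.36% and 2.29%) and the LP share of *Spdef* (0.540%) lay within it.

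The luminal clusters of WT showed further structure, and *Elf5* and *Ehf* did not follow each other within ML cells. *Elf5* was highest of the ML clusters in cluster 10, at 40.4 and 37.1 CPM in WT libraries A and B and 36.0 and 40.9 CPM in the mutant libraries. The next ML cluster, cluster 4, stood at 23.0 CPM in WT, with intervals that did not overlap, and cluster 6 was lowest at 7.67 CPM. *Ehf* was highest of the ML clusters in that same cluster 6, at 24.5 and 32.2 CPM in WT and 29.4 and 30.05 CPM in the mutant, and stood at 6.91 CPM in cluster 10. The other 7 ML clusters lay between 6.70 and 12.7 CPM for *Ehf*. By thinned share, *Elf5* in WT cluster 10 (3.04%) and *Ehf* in WT cluster 6 (2.47%) also lay within the intervals of clusters 12 and 13.

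The ratio of *Elf5* to *Ehf* UMIs, which needs no scaling between clusters, was 1.23 (1.16 to 1.31) for LP cluster 1 and 0.974 (0.857 to 1.11) for LP cluster 2. Cluster 10 reached 5.60 (4.36 to 7.29) from 409 and 73 UMIs, and cluster 6 only 0.269 (0.187 to 0.378) from 43 and 160 UMIs. By library, cluster 10 gave 5.69 and 5.51 (WT) with 4.89 and 4.17 (mutant), and cluster 6 gave 0.277 and 0.263 (WT) with 0.272 and 0.341 (mutant). In all 4 libraries the ratio was above its LP values in cluster 10 and below them in cluster 6. It was also above the LP values in all 4 libraries in LI cluster 3 and in ML clusters 4, 7, 8 and 11. In WT it was 3.07 (2.28 to 4.18) in cluster 4, and between 1.38 and 1.60 in clusters 3, 7, 8 and 11. A ratio above the LP values is thus not particular to cluster 10.

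*Gata3* was highest in clusters 4 and 10, at 1407 and 1359 CPM in WT, which did not differ beyond their intervals, and lowest of the ML clusters in cluster 5 at 883 CPM. *Runx1* was highest in cluster 11 (336 CPM), followed by cluster 9 (293 CPM, with an overlapping interval), and lowest of the ML clusters in clusters 5 (140 CPM) and 6 (168 CPM). *Elf3* was highest in clusters 10 (159 CPM) and 7 (148 CPM), neither of them apart from LP cluster 1 (144 CPM), and *Tbx3* in cluster 7 (136 CPM). *Spdef* showed its highest level in cluster 11 (39.7 CPM), and the other 7 ML clusters lay between 27.3 and 32.4 CPM. For none of *Elf3*, *Tbx3* and *Spdef* was the highest cluster apart from the next in order. *Grhl2* ranged from 16.6 CPM in cluster 10 to 33.8 CPM in LP cluster 1, and no neighbours in that order stood apart. Between the LP clusters 0 of 9 members met the fold rule, against 9.88% higher and 12.9% lower in cluster 2 of 8502 genes. This count was not recomputed under other settings. With the mean over cells the log2 ratio of *Runx1* was -0.60, beyond 1.5-fold. *Elf5* stood at 243 CPM in cluster 2, which the study describes as proliferating, and 338 CPM in cluster 1 (log2 -0.48, -0.62 to -0.33), and *Runx1* at 84.1 and 117 CPM (log2 -0.48, -0.73 to -0.24). *Grhl2* had the lowest ratio (log2 -0.51, -1.0 to -0.05), and *Elf3*, *Ehf* and *Tfap2c* were also lower in both WT libraries. The libraries differed: A and B gave -0.81 and -0.27 for *Grhl2* and -0.73 and -0.14 for *Elf3*, so in library A alone both lay beyond 1.5-fold. *Tbx3* went the other way (log2 0.44, 0.09 to 0.78), with 50.4 CPM in cluster 2 and 37.2 in cluster 1.

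**Figure D2:**
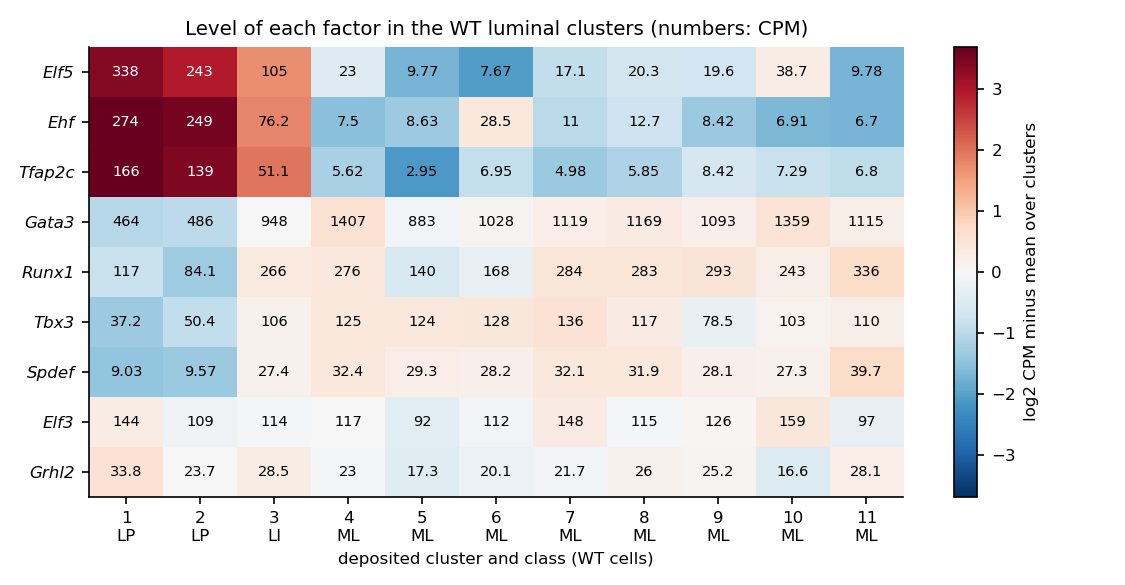
Level of each member (rows) in the 11 luminal clusters of WT (columns), with CPM printed in each cell and colour for the log2 level minus the mean of the row. *Elf5* stands out among ML clusters in cluster 10 (38.7 CPM) and *Ehf* in cluster 6 (28.5 CPM).

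The study describes ML clusters 5 and 6 as proliferating. Against the other ML clusters of WT, *Ehf* met the fold rule as higher there (log2 1.16, 0.91 to 1.41) and *Elf5* and *Runx1* as lower (log2 -1.36, -1.69 to -1.04, and -0.86, -0.94 to -0.79). These were 1 of 9 members higher and 2 of 9 lower, against 12.9% and 10.8% of 12943 genes. The rise of *Ehf* was carried by cluster 6, since cluster 5 stood at 8.63 CPM. *Gata3* was lower by less than the rule asks (log2 -0.35, -0.38 to -0.32). TMM scaling would lower these ratios by 0.13, which changed no call.

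Cluster 11 is the ML cluster that the study compares between genotypes, and its share of cells was 15.4% in WT and 4.85% in the mutant. Against the other ML clusters of WT, *Elf5* stood at 9.78 and 21.6 CPM (log2 -1.14, -1.47 to -0.84) and *Ehf* at 6.70 and 11.6 CPM (log2 -0.79, -1.19 to -0.41). The *Ehf* ratio rested on cluster 6, the ML cluster with the most *Ehf*: against the other ML clusters without it, the log2 ratio was -0.47 (-0.88 to -0.08) and did not meet the rule, and cluster 11 was not apart from cluster 10 (6.91 CPM), the next in order. With all ML clusters 2 of 9 members, *Elf5* and *Ehf*, met the fold rule as lower, against 10.9% of 12745 genes, and 0 members met it as higher, against 2.71%. By less than the rule asks, *Runx1* (log2 0.45), *Grhl2* (0.43), *Spdef* (0.39) and *Tfap2c* (0.22, -0.19 to 0.62) were higher in cluster 11. *Elf3* (-0.43), *Tbx3* (-0.14) and *Gata3* (-0.10) were lower. Each of the 9 members pointed the same way in both WT libraries, so that agreement sets none of them apart.

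LI cells lay between the classes for most members but not at 1 common point. On a scale where the ML level is 0% and the LP level 100%, LI cells of WT stood at 32.8% for *Gata3*, 28.9% for *Elf5*, 29.3% for *Tfap2c* and 25.4% for *Ehf*. The same measure was 42.3% for *Kit* and 25.2% for *Prlr*. *Tbx3* stood at 17.2% and *Spdef* at 19.3%, the latter with 31.6% and 5.68% in WT libraries A and B. *Runx1* stood at -3.14%, with 266 CPM in LI and 261 CPM in ML cells, and its 4 libraries ranged from -4.31% to 4.07%. On the CPM scale *Runx1* was thus close to its pooled ML level in LI cells, while *Gata3* was not. That ML level pools unlike clusters: in WT, *Runx1* stood at 156 CPM in clusters 5 and 6 and at 284 CPM in the other ML clusters. TMM scaling put *Runx1* at 8.71% and *Gata3* at 38.1%. In thinned cells, the *Runx1* share was 22.2% in LI and 22.5% in ML cells. *Grhl2*, with a narrow gap between the classes, stood at 68.8% in WT (100.2% and 50.1% in libraries A and B) and at 117% in the mutant, above its LP level in 3 of 4 libraries. *Elf3*, at 114 CPM in LI cells of WT, lay outside the range of its LP and ML levels.

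A droplet that captured 2 cells would also mix the classes. Doublet scores in the top 6% of a library were given to 48.5% of WT LI cells, 3.84% of LP cells and 3.09% of ML cells, and to 50.6% of mutant LI cells. Without these cells, LI stood at 28.1% for *Gata3*, 30.005% for *Elf5*, 22.7% for *Ehf*, 26.0% for *Tfap2c* and -12.4% for *Runx1* in WT. Among thinned WT LI cells, 22.1% had a UMI of an LP factor (*Elf5*, *Ehf* or *Tfap2c*) and 31.8% a UMI of an ML factor (*Runx1*, *Tbx3* or *Spdef*). Both were found in 6.48% (5.12% to 8.07%), where the product of the shares was 7.01%. Without the cells of high doublet score these were 6.63% and 6.92%. The LP and ML factors were thus detected in the same LI cells about as often as the product of their shares, with and without those cells. Whether doublets contribute to the LI levels was not tested.

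**Figure D3:**
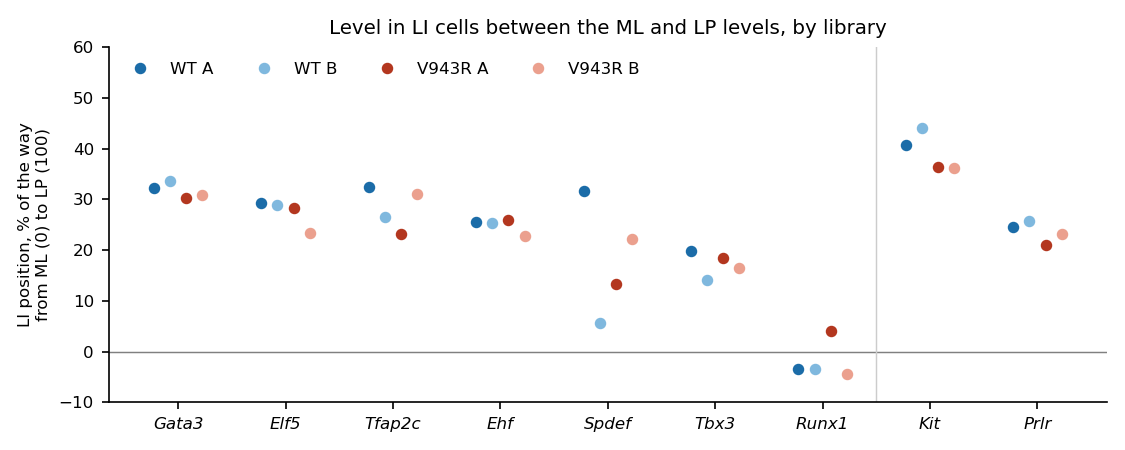
Position of the LI level between the ML level (0%) and the LP level (100%) on the CPM scale, for 7 members and the class markers *Kit* and *Prlr*, with 1 point per library. *Runx1* lies between -4.31% and 4.07% and *Gata3* between 30.2% and 33.6%.

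Within LP cells the LP factors were found together about as often as the product of their shares. *Elf5* and *Ehf* shared 6.13% of thinned WT LP cells, where the product of their shares was 6.17%, and *Elf5* and *Tfap2c* shared 4.19% against 4.16%. *Elf5* and *Gata3* shared 9.43% against 9.56%. *Ehf* and *Tfap2c* shared 3.24% against 3.48%. At 1000 UMIs per cell, no split of LP cells by these factors was detectable in WT.

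Between genotypes the members differed little. None of the 9 met the fold rule in LP, LI or ML cells, in either direction. Over all genes tested, 2.23% were higher and 0.606% lower in mutant LP cells (11219 genes), 2.83% and 1.03% in LI cells (10519 genes), and 2.88% and 1.58% in ML cells (15065 genes). With shares this low, the lack of calls among the 9 members does not set them apart from other genes. The counting interval of the ratio lay within 1.5-fold in each class for all 9, and came closest to that limit for *Grhl2* in LI cells (log2 up to 0.58). *Elf5* in LP cells had a log2 ratio of 0.01 (-0.07 to 0.08), *Tfap2c* -0.04 (-0.15 to 0.07) and *Runx1* in ML cells 0.01 (-0.02 to 0.04).

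Smaller differences separated the libraries for some members. In LP cells both mutant libraries lay above both WT libraries for 2 members, *Gata3* (log2 0.12, 0.05 to 0.18) and *Grhl2* (0.09, -0.16 to 0.33), and below them for 1, *Elf3* (-0.14, -0.26 to -0.02), against 23.1% and 18.1% of all genes. In LI cells they lay above for 2 members, *Gata3* (0.14, 0.10 to 0.19) and *Grhl2* (0.31, 0.05 to 0.58), and below for *Elf3* (-0.13, -0.28 to 0.01), against 23.2% and 22.5%. In ML cells they lay above for 3 members, *Gata3* (0.12, 0.10 to 0.13), *Elf5* (0.26, 0.13 to 0.38) and *Ehf* (0.19, 0.02 to 0.36), and below for 2, *Elf3* (-0.17, -0.22 to -0.12) and *Spdef* (-0.14, -0.24 to -0.04), against 27.7% and 26.8%. Of the *Ehf* difference in ML cells, 0.12 came from the shares of the ML clusters and 0.07 from levels within them, and *Ehf* was lower in the mutant in ML clusters 7, 8 and 11. Such separation was common among all genes, and these counts do not set the members apart.

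**Figure D4:**
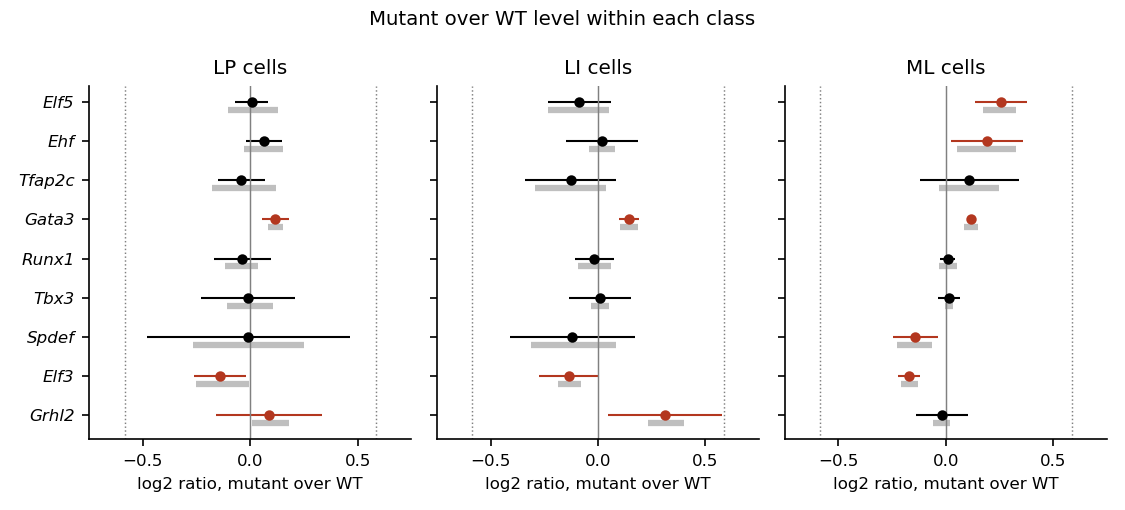
Log2 ratio of mutant over WT for each member in LP, LI and ML cells, with exact conditional binomial 95% intervals, grey bars for the range over the 4 pairs of libraries, and dotted lines at 1.5-fold. Red points have both mutant libraries on 1 side of both WT libraries, and each point lies inside the dotted lines.

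*Gata3* and *Elf3* differed in opposite directions across the clusters. *Gata3* was higher in the mutant in 11 of 11 luminal clusters, with log2 ratios from 0.08 to 0.16 and an interval above 0 in 9 of them. The clusters come from the same libraries and pools, so they are not repeats of the comparison between genotypes. Of 2265 genes that reached 50 UMIs in each luminal cluster, 8.65% were higher in all 11. *Elf3* was lower in 10 of 11 clusters, with cluster 11 at 0.06, and 15.1% of the 2265 genes were lower in 10 or 11 clusters. Many other genes thus had such patterns, which do not set *Gata3* or *Elf3* apart. The *Elf3* difference was uneven: in cluster 10 it stood at 161 and 157 CPM in WT and 114 and 116 CPM in the mutant (log2 -0.46, -0.58 to -0.35). In LP cluster 2 it stood at 83.2 and 135 CPM in WT and 73.6 and 76.3 CPM in the mutant (log2 -0.54, -0.84 to -0.23). WT library A lay close to the mutant libraries there, and WT library B far above. The median over all genes was between -0.03 and 0.02 in each cluster.

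The *Elf5* difference of ML cells came mainly from cluster 7. With each cluster weighted by its share of mutant ML UMIs, the levels within clusters added 3.32 CPM, of which cluster 7 gave 2.05, and clusters 4 and 11 gave 0.341 and 0.338. In cluster 7, *Elf5* stood at 14.8 and 19.1 CPM in WT and 23.9 and 26.2 CPM in the mutant (log2 0.56, 0.29 to 0.83). Cluster 11 had a higher ratio but few UMIs: *Elf5* stood there at 9.61 and 9.93 CPM in WT and 13.9 and 18.0 CPM in the mutant (log2 0.73, 0.15 to 1.28), from 92 and 39 UMIs. In cluster 10, where *Elf5* was highest, the log2 ratio was 0.00 (-0.22 to 0.21). LP cells made up 22.6% of the mutant and 17.1% of the WT cells, with 3123 and 3181 cells, and ML cells numbered 9612 and 14188. RNA of LP cells could be present in ML droplets. Of 6 LP markers in ML cells, *Aldh1a3* stood at 5.67 (WT) and 4.88 CPM (mutant), *Cd14* at 26.2 and 25.7, *Csn3* at 17.5 and 17.6, *Trf* at 16.0 and 16.8, *Kit* at 2.68 and 2.98 and *Lypd3* at 50.3 and 64.2. The part of free RNA in the *Elf5* difference was not tested.

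**Figure D5:**
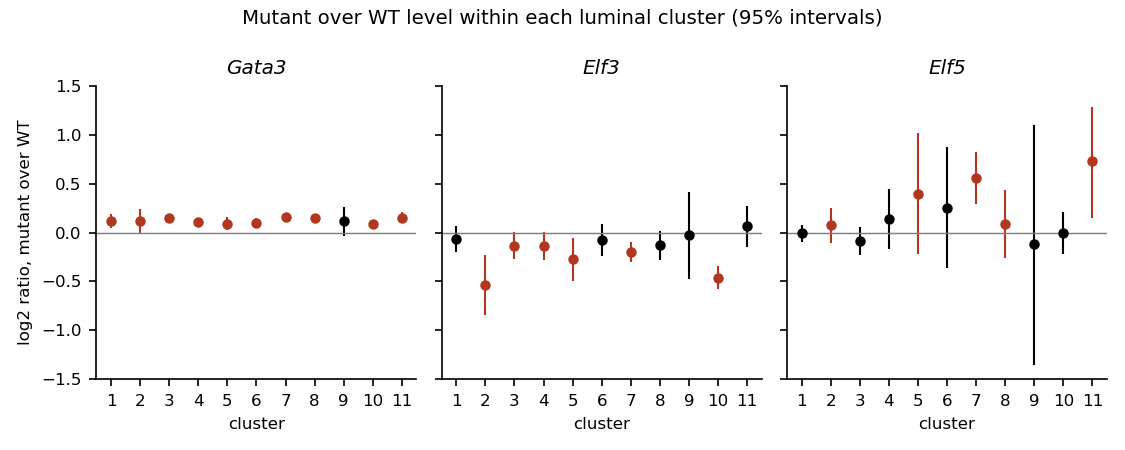
Log2 ratio of mutant over WT for *Gata3*, *Elf3* and *Elf5* in each luminal cluster, with exact conditional binomial 95% intervals. Red points have both mutant libraries on 1 side of both WT libraries. *Gata3* lies between 0.08 and 0.16 in every cluster, *Elf3* lies lowest in clusters 2 and 10, and *Elf5* highest in cluster 11.

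Over all cells, without classes, the LP factors appeared higher in the mutant. *Elf5* went from 62.8 CPM (WT) to 73.7 CPM (mutant), a log2 ratio of 0.23, *Ehf* from 47.5 to 57.8 CPM (0.28) and *Tfap2c* from 28.5 to 32.3 CPM (0.18). When the WT level of each cluster was weighted by the mutant cluster shares, these 3 genes rose by 0.19, 0.22 and 0.21 on the log2 scale, which left 0.04, 0.06 and -0.03 within clusters. For *Gata3* (log2 0.09) the shares gave -0.03 and the levels within clusters 0.12. *Elf3* (-0.16) had 0.03 from shares and -0.19 from levels. All 13 clusters were weighted at once, so the part of the LP cells alone was not separated.

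Correlations of log2(CPM + 1) over the 11 luminal clusters of WT largely grouped the members as the classes did. The clusters make up the classes, so a gap between LP and ML cells gives such a grouping by itself. They are descriptions over 11 points that share libraries and differ in depth. *Elf5* and *Tfap2c* had r = 0.95, *Ehf* and *Tfap2c* 0.95, *Elf5* and *Ehf* 0.86, *Gata3* and *Spdef* 0.92, *Tbx3* and *Spdef* 0.92, and *Gata3* and *Runx1* 0.86. *Runx1* and *Tbx3*, both on the ML side, had only 0.65, near *Grhl2* and *Tfap2c* at 0.60. Among 9824 genes with at least 500 UMIs, the 3 closest in pattern were *Ppp2r3a*, *Plet1* and *Crispld2* for *Elf5* (r 0.98 for each), *Bambi*, *Dock9* and *Klf7* for *Ehf* (0.98 to 0.99) and *Clmn*, *Enpp3* and *Foxo1* for *Tfap2c* (0.99). On the ML side they were *Syt7*, *Acsbg1* and *Zbtb8a* for *Gata3* (0.98 to 0.99), *Eya2*, *Cdh13* and *Gm3511* for *Runx1* (0.97 to 0.98), *Kcns3*, *Guk1* and *Rbp4* for *Tbx3* (0.98 to 0.99) and *Dnaic1*, *Plk2* and *Rbms3* for *Spdef* (0.99). *Elf3* was closest to 4732491K20Rik (0.85), followed by *Vps37b* and *Il4ra*. *Grhl2* was closest to *Kmt2a*, *Arhgef5* and *Mylip* (0.93 to 0.95). Most of these places were not held in mutant clusters. Of the 27 genes, 7 were among the 10 closest there, and 17 had an r above 0.9, with a range from 0.35 (*Arhgef5* with *Grhl2*) to 0.99 (*Foxo1* with *Tfap2c*).

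A list of 56 other transcription factors of mammary epithelium was set beside the members. Of the 48 tested, 21 met the fold rule as higher in LP and 12 as higher in ML cells of WT, against 23.1% and 18.5% of all genes tested, with a median log2 ratio of 0.32 against 0.09 over all genes. The largest LP ratios were those of *Hey1* (log2 6.84), a Notch target, *Sox10* (6.51) and *Runx2* (6.36, 5.38 to 7.53), the last at only 0.159 CPM in ML cells. The LP over ML ratios of *Runx2* and *Runx1* thus pointed to opposite classes. By level, *Runx1* stood above *Runx2* in both LP and ML cells of WT. On the ML side *Pgr* (-2.91), the progesterone receptor, *Id3* (-2.60) and *Foxa1* (-2.47), a partner of the oestrogen receptor, led. Between genotypes, 0 of 47 tested met the rule in LP and 0 of 46 in LI cells. Of all genes, 2.23% were higher and 0.606% lower in LP cells, and 2.83% and 1.03% in LI cells. In ML cells 1 of 48 met it as lower, against 1.58% of all genes, and 0 as higher, against 2.88%. This was *Bcl11a*, at 0.723 CPM in the mutant and 1.16 in WT (log2 -0.69, -1.34 to -0.06). These are trace levels beside 42.1 CPM in WT LP cells, and the part of free RNA in them was not tested.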

How the data were processed

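Luminal cells of both genotypes were sequenced on the 10x Chromium 3' v2 platform. The authors' deposited table holds a signal for 52636 genes in 32439 cells, with the library, genotype, cluster and class of each cell, and clusters were made in Partek Flow. The submitters' processing notes list GRCm38, GSNAP 2013-10-10, bcl2fastq 2.20 and CASAVA 1.8. Filters on cells are not given in the sources used here. In this deposited signal, UMIs had been multiplied by 1 factor per cell. Division by the smallest nonzero value of each cell gave whole numbers, within 0.02, for 100% of 60853305 values, used here as UMIs, and no cell was left out. No count model was fitted. Levels carry exact Poisson intervals, ratios conditional binomial ones and shares Clopper-Pearson ones. Doublet scores came from scrublet (expected rate 6%, 30 components, scanpy 1.11.5), and none were removed for the main values. The members and lists were chosen with earlier results of these data known. Named besides the members were the targeted gene, class markers, the 3 genes closest in pattern to each member, and other factors past the fold rule or among the 3 largest ratios. The fold rule was run on simulated Poisson counts of ML cells with known changes by a fold of 2. That is a check of the code only, since the simulation holds no spread between mice or libraries. Python 3.11.15, numpy 2.4.6 and scipy 1.17.1 were used, with a seed of 1.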

Additional observations from a re-analysis of the deposited data

How the results depend on the processing

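The counts of members past the fold rule were recomputed with each library left out, mean over cells, TMM factors, a looser fold (a log2 ratio of 0.32), a fold of 2, minimums of 20 and 200 UMIs, no rule on libraries, and without the cells of fewest UMIs or highest doublet scores. For the mutant LP and ML cells and for clusters 5 and 6 this was done after seeing the data, as were the counts without cluster 6. The count of 0 between the LP clusters was not recomputed. Ratios there moved beyond 1.5-fold without WT library B (*Elf3* and *Grhl2*) and with the mean over cells (*Runx1*). Those of *Elf5*, *Elf3*, *Runx1*, *Grhl2* and *Tbx3* lay beyond the looser fold, for which no share over all genes was taken. The count of members lower in cluster 11 fell from 2 to 1 (*Elf5*) with the mean over cells, with a fold of 2 (5.63% of all genes) and without cluster 6, and the count higher rose from 0 to 3 (*Runx1*, *Grhl2* and *Spdef*) with the looser fold, against 9.04% of all genes, which also added *Elf3* as lower there (20.5% of all genes). In clusters 5 and 6 the count lower fell from 2 to 1 (*Elf5*) with a fold of 2 (4.13% of all genes) and rose to 4 (*Gata3*, *Elf5*, *Elf3* and *Runx1*, against 21% of all genes) with the looser fold, and the count higher fell from 1 to 0 at a minimum of 200 UMIs, since *Ehf* had 198 UMIs there, and without cluster 6, where *Tfap2c* joined the lower members of cluster 5. In LP over ML cells *Grhl2* joined the higher members of WT, 4 in place of 3, with the looser fold (35.1% of all genes) and without WT library A, and left those of the mutant, 3 in place of 4, with TMM factors and with a fold of 2 (14% of all genes). The genotype counts stayed at 0 in LP, LI and ML cells under each of these. Of the log2 ratios of single members, 430 stayed within their counting interval and 56 moved beyond it. Of the positions of LI cells 24 moved by less than the spread between WT libraries and 18 by more, and 27 of 27 shares of cells moved without thinning. No paired analysis was possible because the columns of the table carry no replicate number of a library. Among LP cells depth limits *Spdef* most: with 8.18 and 10.0 CPM in WT LP cells, its genotype log2 ratio there had an interval from -0.48 to 0.46. In ML cells the widest interval was that of *Tfap2c* (-0.12 to 0.34).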
